A study of Mus musculus with 6 samples.

Results

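The insulin-like growth factor (IGF) axis was described here through 10 genes: the ligands Igf1 and Igf2, the receptors Igf1r and Igf2r, the growth hormone receptor Ghr, and the binding proteins Igfbp2, Igfbp3, Igfbp4, Igfbp5 and Igfbp6. They were taken by symbol from the 23337 gene rows of each count table, and all 10 were among the 13442 genes that passed the low-count filter. Their transcripts were measured by RNA sequencing of stromal fibroblasts cultured from the mammary gland of C57BL/KaLawRij mice aged 7 weeks, 3 libraries from cpdm/cpdm (Sharpin-deficient) animals and 3 from wt/wt animals. Each library came from cells of 3 pooled mice at passage p0, and the labels name no treatment. The cpdm allele is a spontaneous frameshift mutation of Sharpin carried in the germ line, so every cell type of the donor animals lacks the protein, which helps to build linear ubiquitin chains and restrains integrins. The design asks which stromal transcripts differ when SHARPIN is missing.

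IGF1 and IGF2 are secreted peptides that signal through the receptor tyrosine kinase IGF1R, whereas IGF2R takes IGF2 up for degradation and sorts lysosomal enzymes. Most IGF outside cells is held by binding proteins, which proteases such as PAPP-A cleave to free the ligand. In the mammary gland, growth hormone acting on the stroma through GHR induces Igf1, and stromal IGF1 acts on the epithelium during growth of the ducts.

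The tables held between 13570649 and 15656196 gene counts per library. Sharpin transcript was lower in every Sharpin-cpdm library, called mutant below, than in every wild-type library. It stood at 10.5, 9.13 and 9.50 CPM in mutant libraries and 24.5, 25.2 and 31.2 CPM in wild-type ones. In the edgeR fits described next, its adjusted p was 0.00598 with the replicate block and 0.272 without it. Levels are given in CPM, the counts-per-million value over all gene counts, in the order of replicate numbers 1, 2 and 3.

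The genotypes were compared with and without regard to the replicate numbers. Without them, the quasi-likelihood test of edgeR (Benjamini-Hochberg adjusted) called 0 of 13442 genes (0%) at an adjusted p of 0.05, with 307 at an unadjusted p under 0.05. DESeq2 called 10 genes and limma-voom 0 on the same libraries, with 0 of the 10 IGF genes called by any of the 3 tools. The same edgeR test with the replicate number as a block, which compares each mutant library with its same-numbered wild-type library, called 337 genes (2.51%), 284 lower (2.11%) and 53 higher (0.394%). That number depended on the pairs, at 653 without pair 1, 128 without pair 2 and 44 without pair 3. Below, a gene is said to have fallen or risen where this second fit called it, and adjusted p-values are from that fit unless stated. Without the block every IGF gene had an adjusted p of 0.9999 (edgeR).

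Of 12 fibroblast markers 3 were called lower and 0 higher in the mutant in the blocked fit, beside 2.11% and 0.394% of all tested genes. Their summed level was 71139 to 83554 CPM in mutant cells and 71414 to 91003 CPM in wild-type cells. Of 17 endothelial markers, 14 were called lower in the mutant and 0 higher, with a median log2 fold change of -0.79. All 17 had a log2 fold change below 0, the highest being -0.11. Summed levels were 591 to 862 CPM against 782 to 1378 CPM. For 7 pericyte markers, 3 were called lower and sums were 747 to 1001 against 874 to 1212 CPM. For 10 epithelial markers, 9 were tested and 0 called, sums were 208 to 443 against 312 to 550 CPM and Elf5, not tested, stayed under 1 CPM. For 8 macrophage markers, 7 were tested (all but Aif1), 0 were called and sums were 131 to 329 against 68.9 to 387 CPM. Of 8 adipocyte markers, 3 were tested (Fabp4, Pparg and Lpl) and 2 called lower. Lep and Retn were at 0 and Adipoq, Plin1 and Cidec under 1 CPM in every library. In cultures of this kind, fewer cells of a type and less RNA per cell cannot be told apart.

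With the block, Igf1 and Igfbp4 fell in the mutant cultures, 2 of the 10 IGF genes beside 2.11% of all tested genes, and 0 rose beside 0.394%. The other 8 did not pass. Within same-numbered pairs, 5 of the 10 were lower in the mutant in all 3 pairs (Igf1, Ghr, Igfbp3, Igfbp4 and Igfbp6), beside 18.4% of all tested genes. Another 2, Igf1r and Igfbp2, were higher in all 3 pairs, beside 22.7% of tested genes. Libraries of the genotypes were fully separate for Igf1r and Igfbp6 alone, 2 of 10 beside 5.94% of tested genes. The median log2 fold change of the 10 was -0.18 with the block and -0.22 without it, and that of all tested genes was -0.00157 and -0.00263.

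**Figure D1:**
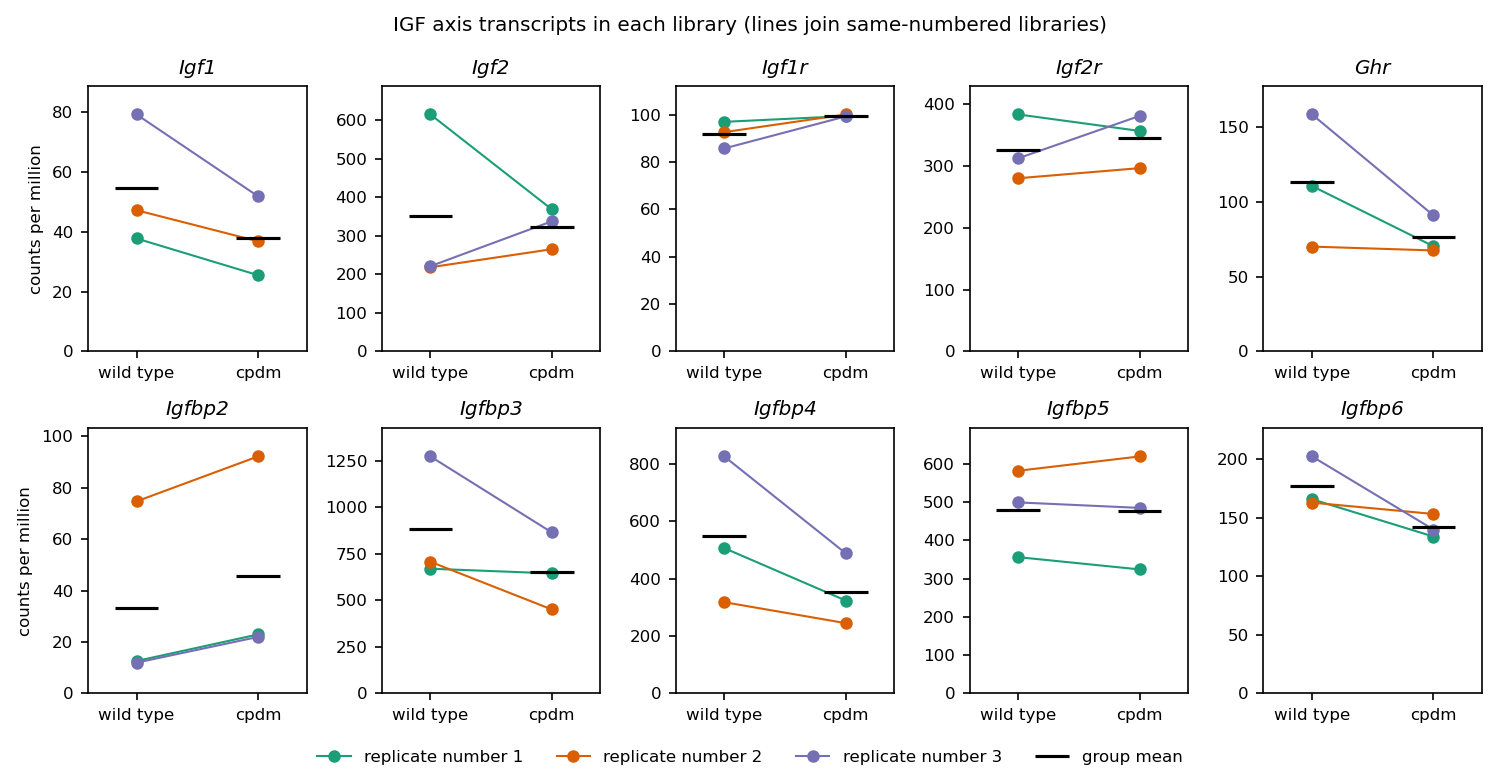
CPM of each IGF axis gene in the 3 wild-type and 3 Sharpin-cpdm libraries, on linear axes from 0, with lines joining libraries of the same replicate number and black bars at the group means. All 3 lines slope down for Igf1, Ghr, Igfbp3, Igfbp4 and Igfbp6 and up for Igf1r and Igfbp2, and Igfbp2 is highest in libraries numbered 2 of both genotypes.

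The sequences upstream of 3 binding protein genes are shown because these genes differed in direction in the same libraries: Igfbp4 fell, Igfbp3 was lower and Igfbp2 higher in all 3 pairs. Each line gives the 250 bases before the RefSeq transcription start (GRCm38.p6, the mm10 assembly) on the strand of the gene, chr11:99040994-99041243 on the plus strand for Igfbp4, chr11:7213924-7214173 on the minus strand for Igfbp3 and chr1:72824230-72824479 on the plus strand for Igfbp2. Capitals mark matches, on either strand, to any of 7 motifs: TATAAA for the TATA box, GGGCGG for the GC box, CCAAT for the box of that name, TTCNNNGAA for a STAT element, TGTTTAC for a FOXO element, TGACTCA for an AP-1 element, and the NF-kappaB element by its name.
Igfbp4: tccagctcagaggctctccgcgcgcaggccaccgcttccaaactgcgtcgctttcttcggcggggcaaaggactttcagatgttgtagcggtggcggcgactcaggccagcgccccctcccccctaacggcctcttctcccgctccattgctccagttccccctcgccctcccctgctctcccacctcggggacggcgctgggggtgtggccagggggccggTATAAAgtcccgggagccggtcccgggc
Igfbp3: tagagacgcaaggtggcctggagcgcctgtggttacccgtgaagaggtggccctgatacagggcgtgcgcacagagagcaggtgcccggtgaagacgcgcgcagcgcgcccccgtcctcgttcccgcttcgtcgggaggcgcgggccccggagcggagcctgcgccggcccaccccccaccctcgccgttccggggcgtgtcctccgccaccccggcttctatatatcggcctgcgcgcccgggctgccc
Igfbp2: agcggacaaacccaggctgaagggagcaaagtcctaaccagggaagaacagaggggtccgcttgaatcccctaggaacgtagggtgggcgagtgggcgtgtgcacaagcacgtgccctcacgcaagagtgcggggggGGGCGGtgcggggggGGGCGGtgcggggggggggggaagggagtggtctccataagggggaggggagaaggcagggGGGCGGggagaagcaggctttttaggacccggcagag

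Igfbp4 held 1 match, a TATA box ending 23 bases before the start, a motif present in 12.4% of all 32851 RefSeq upstream windows of this length. Igfbp3 held none of the 7, and Igfbp2 held 3 GC boxes, a motif present in 32.7% of windows. Of the 15 windows of the 10 genes, 0 had a STAT or a FOXO element as spelled here, which 7.02% and 3.17% of all windows hold. The only window of Igf1 (87860861 to 87861110) lay inside the annotated gene, with all 250 bases in exons. An Igf2 window was also exonic throughout, and some others were so in part. The bases before the first annotated exon of Igf1 were thus not searched. AP-1 and NF-kappaB elements were each found in 1 of the 15, at the second Igfbp2 start and at Igfbp5, beside 4.46% and 7.25% of all windows. These matches describe letters in a window and were not tied to binding.

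Igf1 (chromosome 10, 87858265 to 87937042, plus strand, GENCODE ENSMUSG00000020053.18) encodes the ligand that mediates much of growth hormone action. It was measured at 25.5, 36.8 and 51.9 CPM in mutant cells and at 37.7, 47.2 and 79.2 CPM in wild-type cells. The ranges of the groups overlapped, yet each mutant library was below the wild-type library of its number. The level in the mutant was 0.675, 0.780 and 0.655 of that in wild type in pairs 1, 2 and 3. With the block it differed by -0.53 ± 0.07 on the log2 scale (SE, n = 3 per group; adjusted p = 0.0234, blocked edgeR fit). Without the block it was -0.54 ± 0.35, and -0.17 when wild-type library 3 was left out. Leaving out pair 3 ended the call, at -0.45 (adjusted p = 0.141, blocked edgeR fit).

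Igf2 (chromosome 7, 142650766 to 142666816, minus strand, ENSMUSG00000048583.16) encodes the second ligand, an imprinted growth factor of fetal and mesenchymal tissue. Its levels were 368, 265 and 337 CPM in mutant cells and 615, 218 and 221 CPM in wild-type cells. The single high value was that of wild-type library 1, and the pairs went opposite ways, with log2 ratios of -0.74, 0.28 and 0.61. With the block the log2 fold change was 0.04 ± 0.23 (adjusted p = 0.956, edgeR) and without it -0.13 ± 0.41. Without pair 1 it was 0.43 (adjusted p = 0.0145, blocked edgeR fit), so that the call turned on that pair. The annotated genes Gm49394, on the same strand, and Igf2os, on the opposite strand, share exon bases with Igf2. The library kit does not mark strand, so reads from the shared bases cannot be told apart.

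H19, a noncoding RNA gene 72622 bases downstream of Igf2 in the same imprinted domain, was looked at after its values were seen. It stood at 1014, 515 and 689 CPM in mutant cells and 1638, 417 and 407 CPM in wild-type cells. Like Igf2, it was highest in wild-type library 1 and higher in the mutant than in wild type in pairs 2 and 3. Its log2 fold change was 0.11 ± 0.24 (adjusted p = 0.853, blocked edgeR fit).

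Neither IGF receptor was called. Igf1r (chromosome 7, 67952827 to 68233668, plus strand) encodes the signalling receptor of both ligands. Its levels were 99.3, 100.03 and 99.2 CPM in mutant cells and 96.9, 92.6 and 85.7 CPM in wild-type cells, so that the groups did not overlap. The difference was small, at 0.11 ± 0.05 on the log2 scale (adjusted p = 0.327, blocked edgeR fit). Igf2r (chromosome 17, 12682406 to 12769664, minus strand), the clearance and mannose 6-phosphate receptor, stood at 356, 296 and 380 CPM in mutant cells and 383, 280 and 312 CPM in wild-type cells. The groups overlapped, pair 1 was lower and pairs 2 and 3 were higher in the mutant, and the log2 fold change was 0.08 ± 0.07 (adjusted p = 0.634, blocked edgeR fit).

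Ghr (chromosome 15, 3317760 to 3583492, minus strand) encodes the growth hormone receptor. It was at 70.4, 67.6 and 91.1 CPM in mutant cells and 110.8, 70.2 and 158.7 CPM in wild-type cells. Pairs 1 and 3 differed widely, at log2 ratios of -0.65 and -0.80, and pair 2 hardly, at -0.05. The log2 fold change was -0.53 ± 0.14 (adjusted p = 0.137, blocked edgeR fit), so it was close in size to that of Igf1 but did not pass. DESeq2 with the block gave an adjusted p of 0.0293, and without pair 2 edgeR's blocked test gave 0.0257.

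**Figure D2:**
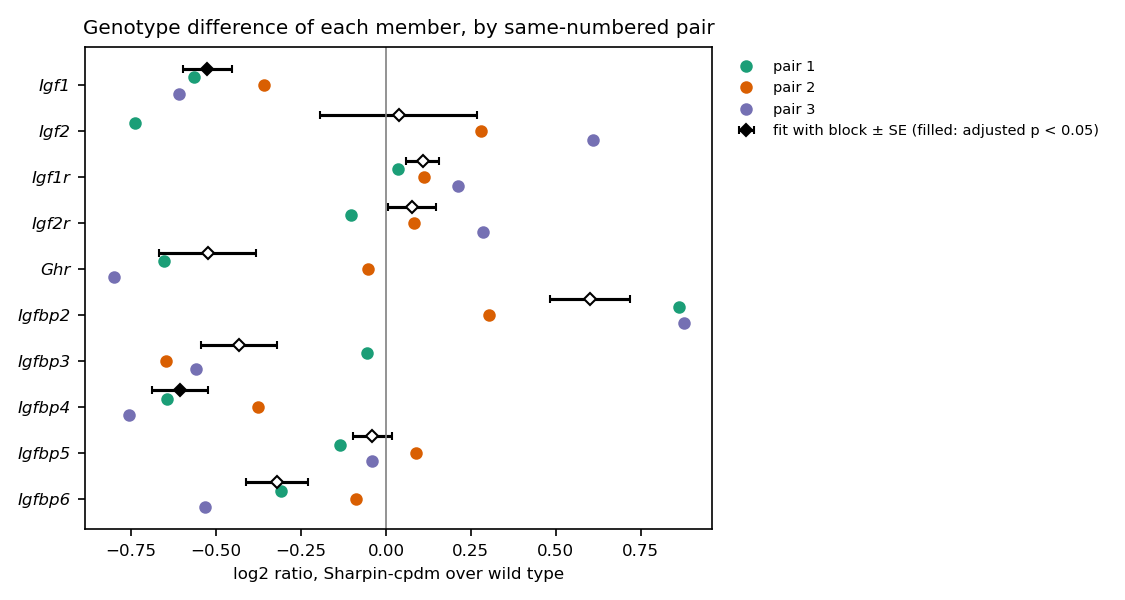
Log2 ratio of CPM, Sharpin-cpdm over wild type, for each same-numbered pair (coloured points) and the log2 fold change of edgeR's fit with the block (diamonds, bars of 1 SE, filled where the adjusted p was under 0.05). The filled diamonds are Igf1 at -0.53 and Igfbp4 at -0.61, and the points of Igf2 lie on both sides of 0.

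Among the binding proteins, Igfbp4 fell and the other 4 were not called. Igfbp4 (chromosome 11, 99041244 to 99054392, plus strand, ENSMUSG00000017493.12) encodes a secreted inhibitor of IGF action that PAPP-A cleaves. It stood at 324, 245 and 489 CPM in mutant cells and at 507, 318 and 827 CPM in wild-type cells. The group ranges overlapped, and the level in the mutant was 0.639, 0.770 and 0.591 of that in wild type in pairs 1, 2 and 3. The log2 fold change was -0.61 ± 0.08 with the block (adjusted p = 0.0234, edgeR) and -0.66 ± 0.38 without it, or -0.24 without it and without wild-type library 3. Without pair 3 it was -0.51 (adjusted p = 0.0912, blocked edgeR fit), which ended the call.

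Igfbp3 (chromosome 11, 7206086 to 7213923, minus strand) encodes the main carrier of IGFs in serum. Its levels were 645, 451 and 866 CPM in mutant cells and 671, 708 and 1274 CPM in wild-type cells. Pairs 2 and 3 were apart by log2 ratios of -0.65 and -0.56 and pair 1 by -0.06. The log2 fold change of -0.43 ± 0.11 did not pass (adjusted p = 0.122, blocked edgeR fit). It passed without pair 1, at -0.62 (adjusted p = 0.000927, blocked edgeR fit), and in DESeq2 with the block (0.0139). Igfbp6 (chromosome 15, 102144362 to 102149511, plus strand), whose protein prefers IGF2, stood at 134, 153 and 140 CPM in mutant cells and 166, 163 and 202 CPM in wild-type cells. Every mutant library was below every wild-type library, and the log2 fold change was -0.32 ± 0.09 (adjusted p = 0.147, blocked edgeR fit). Without the block its unadjusted p was 0.0369, the single one under 0.05 among the 10 genes in that fit.

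Igfbp2 and Igfbp5 are neighbours on chromosome 1, tail to tail with 5457 bases between them, and both were highest in the libraries numbered 2. Igfbp2 (72824503 to 72852474, plus strand), whose protein can also bind integrins, was at 22.9, 92.1 and 22.0 CPM in mutant cells and 12.6, 74.7 and 11.9 CPM in wild-type cells. The lowest count behind these values, 170 reads in wild-type library 3, gives a 95% exact binomial interval of 10.2 to 13.9 CPM, which covers counting error only. The mutant level was 1.82, 1.23 and 1.84 times wild type in pairs 1 to 3, although libraries 2 stood several times above the others in both genotypes. The log2 fold change was 0.60 ± 0.12 (adjusted p = 0.0612, blocked edgeR fit), just outside the threshold. It lay inside in 5 of 9 blocked settings, among them DESeq2 (0.00341), no filter on low counts (0.0262) and offsets for GC content and length (0.0467). Igfbp5 (72857932 to 72874884, minus strand), the binding protein tied to involution of the gland, was at 324, 620 and 485 CPM in mutant cells and 356, 582 and 499.6 CPM in wild-type cells. Its genotypes matched closely within each number, with a log2 difference of -0.04 ± 0.06 (adjusted p = 0.770, blocked edgeR fit).

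Levels varied more by replicate number than by genotype for 8 of the 10 genes. The sum of squares of log2 CPM over the 6 libraries was split into a part between numbers, a part between genotypes and the remainder. The part between numbers was 98.0% for Igfbp5, 90.0% for Igfbp2, between 68.7% and 73.5% for Igf1, Igf2, Igf2r, Igfbp3 and Igfbp4, and 54.8% for Ghr, beside a median of 72.5% over 13432 genes with a count in every library. Igfbp6 and Igf1r differed from these, with 13.8% and 22.4% between numbers and 64.3% and 57.0% between genotypes, where the median over all genes was 8.44%. The genotype part of Igf1 was 25.8% and that of Igfbp4 26.7%, and their remainders were 1.20% and 1.94%. Averaged over genotypes, Igf1, Igfbp3, Igfbp4 and Ghr were highest in libraries 3 and Igf2 in libraries 1. The ratio of the highest to the lowest number was 4.92 for Igfbp2 and 1.06 for Igf1r.

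**Figure D3:**
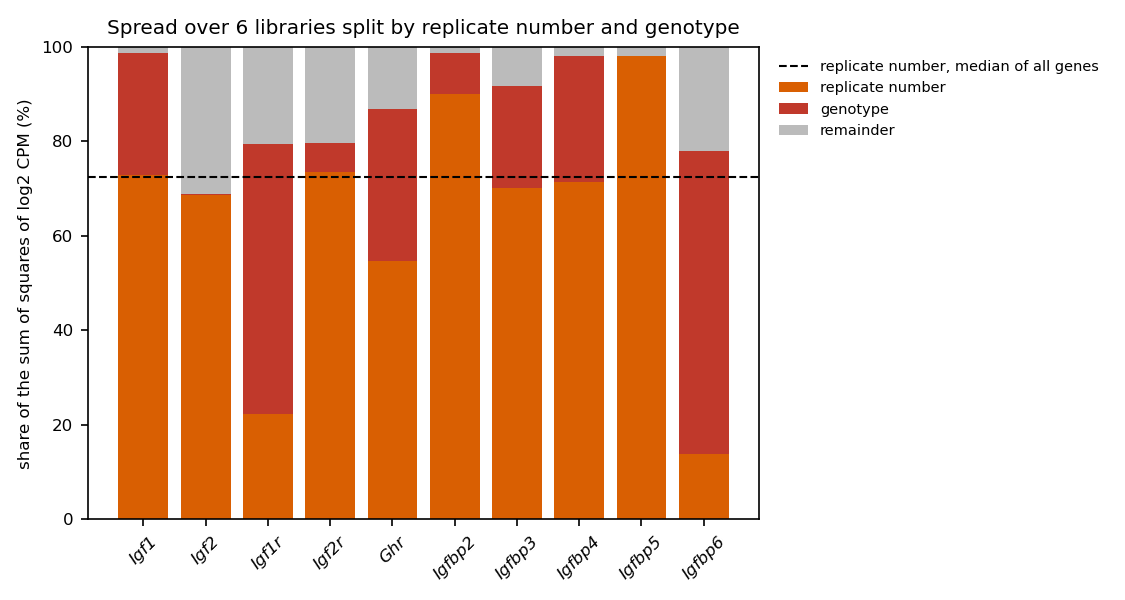
Share of the sum of squares of log2 CPM over the 6 libraries that lies between replicate numbers, between genotypes and in the remainder, for each IGF axis gene (bars add to 100%), with the median share between numbers over all genes as a dashed line at 72.5%. Igfbp6 and Igf1r are the bars in which genotype holds the largest part.

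Divided by the length of annotated exons, the summed level of the binding protein transcripts exceeded that of the ligands in all 6 libraries. The lengths join the exons of all annotated transcripts of a gene, and the annotation used for counting is not known. The order of genes and the ratios between them depend on these lengths. Igfbp3 led in wild type with 282 ± 108 CPM per kilobase of exon (mean ± SD, n = 3), followed by Igfbp6 at 159 ± 19.8, Igfbp4 at 125 ± 58.2, Igfbp5 at 79.8 ± 19.03, Igf2 at 61.4 ± 39.8, Igf2r at 34.9 ± 5.67, Igfbp2 at 17.9 ± 19.5, Ghr at 12.5 ± 4.89, Igf1 at 5.53 ± 2.19 and Igf1r at 5.46 ± 0.337 CPM per kilobase. Igfbp3 stood above Igfbp6 in every wild-type library, and the ranges of each further pair of neighbours in this order overlapped. In mutant cells the order was the same but for the last places, where Igf1r at 5.93 ± 0.0265 lay above Igf1 at 3.84 ± 1.34 CPM per kilobase without overlap. Neighbours in the mutant order were also apart between Igfbp3 and Igfbp6, Igfbp6 and Igfbp4, Igf2 and Igf2r, Igfbp2 and Ghr, and Ghr and Igf1r. The 5 binding proteins summed to 466, 491 and 606 CPM per kilobase in the mutant and 544, 582 and 866 in wild type. That was 6.97, 9.81 and 9.43 times the sum of the 2 ligands in the mutant libraries and 4.89, 13.6 and 18.6 times in the wild-type libraries. The ratio was higher in wild type in pairs 2 and 3 and lower in pair 1, where wild-type Igf2 was high. Igf1 made up 3.85%, 7.43% and 8.16% of the ligand sum per kilobase in the mutant and 3.43%, 11.1% and 17.2% in wild type.

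**Figure D4:**
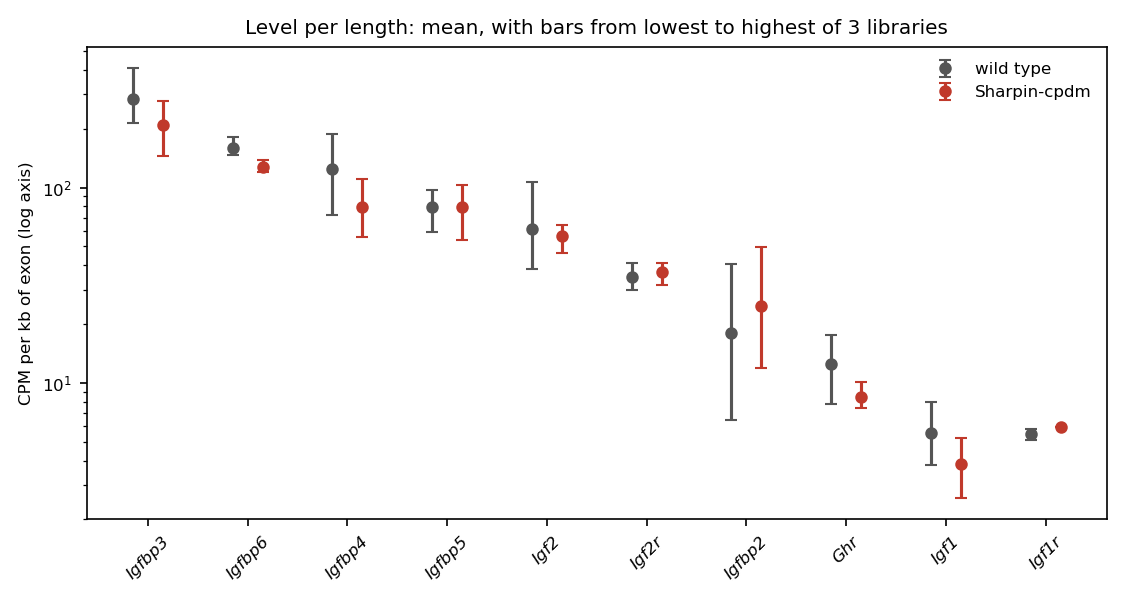
Level of each IGF axis gene in CPM per kilobase of exon on a log axis, as the mean of 3 libraries per genotype with bars from the lowest to the highest library. Igfbp3 is at the top with a wild-type mean of 282 and Igf1 and Igf1r are at the bottom with 5.53 and 5.46.

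Genes that act on the binding proteins were tested from a list of 10, of which 7 passed the low-count filter, 1 fell and 0 rose, beside 2.11% and 0.394% of all tested genes. Stc1, stanniocalcin 1, an inhibitor of PAPP-A, stood at 9.58, 7.54 and 15.9 CPM in mutant cells and 21.1, 17.9 and 45.2 CPM in wild-type cells, without overlap. Its log2 fold change was -1.33 ± 0.11 (adjusted p = 0.00598, blocked edgeR fit). Pappa, which encodes PAPP-A, was named after its values were seen: it was at 102, 97.1 and 89.6 CPM in mutant cells and 81.7, 119 and 62.8 CPM in wild-type cells, a log2 difference of 0.16 ± 0.14 (adjusted p = 0.602, blocked edgeR fit). The median log2 fold change of the 7 was -0.18. Igfbp1, the neighbour of Igfbp3 on chromosome 11, had 0 counts in every library, and Igfals and Igfbpl1 stayed under 1 CPM.

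Of 10 growth hormone and STAT5 pathway genes, 0 passed, with a median log2 fold change of -0.13. Socs2, a feedback inhibitor that growth hormone induces, stood at 27.0, 28.3 and 22.2 CPM in mutant cells and 35.8, 34.2 and 36.3 CPM in wild-type cells. These values did not overlap, and the log2 fold change was -0.47 ± 0.10 (adjusted p = 0.0784, blocked edgeR fit). Socs3, a related inhibitor induced by cytokines, had -0.31 ± 0.07 (adjusted p = 0.0883, blocked edgeR fit). Of 40 tested genes of insulin and IGF receptor signal transduction, from Irs1 to Akt1 and Mtor, 0 passed, and all lay between -0.17 and 0.15 with a median of 0.00606. The 2 with the smallest p were Insr, the insulin receptor, at -0.12 ± 0.05 (adjusted p = 0.273, blocked edgeR fit) and Irs1, an adaptor of both receptors, at 0.15 ± 0.06 (0.292).

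**Figure D5:**
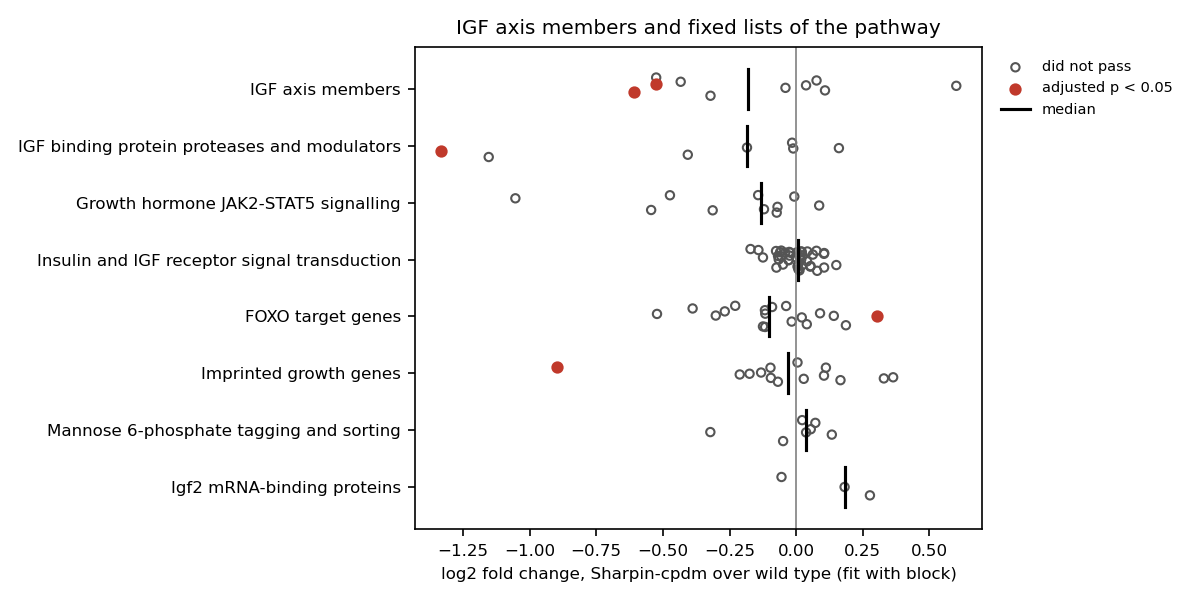
Log2 fold change of edgeR's fit with the block for the 10 IGF axis genes and the tested genes of 7 lists of the pathway, 1 point per gene, filled where the adjusted p was under 0.05, with a bar at each median. The filled points outside the IGF axis are Stc1 at -1.33, Mest at -0.90 and Fbxo32 at 0.30, and the 40 signal transduction genes lie between -0.17 and 0.15.

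Of 18 FOXO target genes, which IGF signalling represses by keeping FOXO factors out of the nucleus, 1 rose and 0 fell, beside 0.394% and 2.11% of all tested genes, with a median of -0.10. Fbxo32, an F-box ubiquitin ligase subunit, was at 45.02, 51.7 and 36.9 CPM in mutant cells and 35.7, 41.4 and 30.3 CPM in wild-type cells, higher in each pair, with a log2 difference of 0.30 ± 0.05 (adjusted p = 0.0472, blocked edgeR fit). It was not called in the blocked fit without pair 1, 2 or 3 (adjusted p = 0.0643, 0.235 and 0.159, edgeR) or by DESeq2 with the block (0.315). By DESeq2 with the block, and in the blocked edgeR fit without pair 1, 0 of the 18 were called higher and 1 lower. Of 14 tested imprinted growth genes 1 fell and 0 rose, beside the same shares of all tested genes, with a median of -0.03. Mest, an imprinted gene of mesenchyme expressed from the paternal allele, fell from 69.0, 104 and 113 CPM in wild-type cells to 47.2, 48.3 and 57.4 CPM in mutant cells, a log2 difference of -0.90 ± 0.10 (adjusted p = 0.0142, blocked edgeR fit). Without pair 3 the call ended (adjusted p = 0.0953, blocked edgeR fit). Of 7 genes that tag or sort lysosomal enzymes by mannose 6-phosphate, the ligand that IGF2R shares, 0 passed, with Gnptg at -0.32 ± 0.09 and Gnptab at 0.13 ± 0.04. Of 3 Igf2 mRNA-binding protein genes 0 passed, with Igf2bp3 at 0.28 ± 0.30 and Igf2bp1 at 0.18 ± 0.27 (adjusted p = 0.692 and 0.790, blocked edgeR fit).

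The genes whose log2 CPM over the 6 libraries was most like that of Igf1 were Cav1, Plekhg1 and Dll4, with Pearson's r of 0.995, 0.995 and 0.993. Cav1 encodes caveolin 1 and Dll4 a Notch ligand of endothelium. Dll4 stood at 26.2, 38.9 and 61.3 CPM in mutant cells and 46.3, 60.5 and 111 CPM in wild-type cells, with a log2 difference of -0.79 ± 0.07 (adjusted p = 0.00598, blocked edgeR fit). Cav1 fell by 0.34 on the log2 scale (SE 0.05, adjusted p = 0.0293 in the blocked edgeR fit). Plekhg1 did not pass, at -0.39 ± 0.07 (adjusted p = 0.0541, blocked edgeR fit). Most like Igfbp4 were Adamts7, Npr2 and Pamr1, with r of 0.998, 0.997 and 0.997. Pamr1 spanned 3.55 to 22.2 CPM in mutant cells and 5.56 to 86.9 CPM in wild-type cells. It fell by 1.64 on the log2 scale (SE 0.21, adjusted p = 0.0212 in the blocked edgeR fit). Adamts7 had a log2 fold change of -0.57 ± 0.08 (adjusted p = 0.0268, blocked edgeR fit). Npr2 did not pass, at -0.23 ± 0.05 (adjusted p = 0.0976, blocked edgeR fit). The r values are the highest among all genes with a mean of at least 5 CPM and describe 6 libraries. Between the numbers of these libraries lay 73.0% of the spread of Igf1 and 71.4% of that of Igfbp4. The likeness was taken over both genotypes, so genes that fell with Igf1 or Igfbp4 were favoured by the choice. Their falls are not separate findings. Beside the fall of Igf1 and Igfbp4, 14 of 17 endothelial markers were called lower in the same libraries, against 2.11% of all tested genes. All 17 had a log2 fold change below 0 in the blocked fit. Their sums were 591, 735 and 862 CPM in mutant cells and 782, 1289 and 1378 CPM in wild-type cells. In both genotypes these sums and Igf1 were lowest in libraries 1, whereas Igfbp4 was lowest in libraries 2. Pericyte markers were called lower for 3 of 7 and higher for 0. The summed adipocyte marker counts were 551, 312 and 680 CPM in mutant cells and 1056, 458 and 1483 CPM in wild-type cells. That sum rests on Fabp4, Pparg and Lpl, 3 of 8 listed genes. The other 5, Adipoq, Plin1, Cidec, Lep and Retn, were under 1 CPM in every library, so the sum is no measure of the whole list. The part of these marker levels in those of Igf1 and Igfbp4 was not tested.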

How the data were processed

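Per the labels' protocols, fibroblasts were freed with collagenase, separated by differential centrifugation and grown in serum to confluence, and libraries were made with the TruSeq v2 kit, which does not mark strand. The tools named, per the submitters' processing notes, are TopHat2 2.0.10, HTSeq 0.5.4p3 and bcl2fastq 1.8.4, and the build is mm10. Annotation and strand settings are not given in the sources used here. What the authors deposited are whole-read counts per gene symbol in 1 table per library. The 5 summary rows, which hold what was not assigned to a gene, were left out (48.8% to 51.2% of the summed counts of a table).

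CPM are counts-per-million values over the gene rows. Tests used R 4.3.3, edgeR 4.0.16 (filterByExpr, TMM factors between 0.969 and 1.03, quasi-likelihood F-test, two-sided, Benjamini-Hochberg adjustment over 13442 genes, threshold 0.05), and as alternatives DESeq2 1.42.0 and limma 3.58.1. SE was taken from the log2 fold change and the F statistic. The genes and lists were chosen with earlier results of these data known. Named besides the 10 are Sharpin, up to 4 called genes of each list (or the 2 with the smallest p where none was called) and the 3 genes most like each called member. Exon lengths and positions are from GENCODE M21 (mm10), matched by symbol for 20953 of 23337 rows and by an older symbol for 1904.

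The labels give both groups the numbers 1 to 3 without saying what they mark. Deviations from group means, correlated across genes, gave 0.457, 0.809 and 0.737 for same-numbered libraries and between -0.691 and 0.00677 for the others. Deviations within a group cancel out, so high same-numbered values force the others low, which adds no support of its own. On the same-numbered values, numbers were treated as pairs, from the data and not the labels. No libraries of a group matched within sampling noise (chi-square per degree of freedom of at least 16.9). On counts simulated with pairs for 13351 genes, the fit without the block recovered 0%, 22.2% and 96.8% of 1.5, 2 and 4-fold changes with 0 false calls, and the fit with it 81.0%, 94.4% and 100% with 9. The simulation gave every gene its own pair effect, drawn separately, and the same dispersion to all genes. Better recovery with the block was thus built in, and the simulation was no test of the pairing. P-values of the blocked fit set the genotype difference against its spread from pair to pair of these pools of mice. Those without the block set it against the spread between pools of a genotype.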

Additional observations from a re-analysis of the deposited data

How the results depend on the processing

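The direction and the calls were checked under 19 alternatives, 9 of them with the replicate block. Genes called numbered 0 without the block, except 10 with DESeq2. They numbered 337 with the replicate block, 336 with it and DESeq2 size factors, 502 without a filter on low counts, 341 with DESeq2, 379 with limma-voom and 403 with GC content and length offsets. Leaving out libraries gave between 0 and 653, with 653, 128 and 44 in the blocked fit without pairs 1, 2 and 3. IGF axis genes called numbered 0 in every setting without the block. In the same order of blocked settings they numbered 2, 2, 3, 5, 2 and 3, and 5, 4 and 0 without pairs 1, 2 and 3.

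Igf1, Igfbp3, Igfbp4, Igfbp6, Ghr and Igf1r kept their sign in all 19 alternatives, but not their size. Without wild-type library 3 and without the block, Igf1 was at -0.17, Igfbp4 at -0.24, Igfbp3 at -0.097, Ghr at -0.25, Igfbp6 at -0.22 and Igf1r at 0.060, and in the blocked fit without pair 3 Igfbp6 was at -0.20. Igf2 was at 0.037 with the block and, with the block, at 0.040 with DESeq2 size factors, 0.042 without a filter, 0.047 with DESeq2, 0.031 with limma-voom, 0.043 with the offsets and 0.43 without pair 1, and at 0.032 with limma-voom alone. In the blocked fit Igfbp5 was at 0.010 without pair 1, and without pair 3 Igf2r was at -0.0094 and Igf2bp3 at -0.047. When libraries were left out, log2 fold changes spanned -0.37 to 0.53 for Igf2, -0.013 to 0.19 for Igf2r, -0.62 to 1.92 for Igfbp2, -0.29 to 0.20 for Igfbp5, -0.12 to 0.55 for Igf2bp1, -0.047 to 0.79 for Igf2bp3, -0.25 to 0.020 for Insr and -0.71 to 0.13 for Socs3. The cause was not tested. The lowest count of an IGF axis gene in a library was 170, whereas Igf2bp1 had between 11 and 25 counts, at which depth limits its value.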

Other observations

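Some of the IGF axis genes that did not pass had close companions in pattern, named here after their values were seen. Ltbp2, which encodes a latent TGF-beta binding protein of elastic fibres, followed Igfbp2 with a Pearson's r of 0.999 over the 6 libraries, at 543, 1171 and 493 CPM in mutant cells and 362, 1072 and 348 CPM in wild-type cells. Its log2 fold change was 0.39 ± 0.08 (adjusted p = 0.0778, blocked edgeR fit). Since Ltbp2 was chosen for likeness over the same libraries, this is no separate finding. Sort1, which encodes sortilin, another receptor that sorts lysosomal proteins, was the gene most like Igf2r, with an r of 0.997. Its levels were 28.8, 22.0 and 30.7 CPM in mutant cells and 31.0, 20.0 and 23.0 CPM in wild-type cells. The log2 fold change of Sort1 was 0.14 ± 0.10 (adjusted p = 0.558, blocked edgeR fit). N4bp2 and Cul4a came next, with r of 0.997 and 0.993. These too were chosen as the most alike of 10932 genes over 6 libraries, so a shared regulation was not tested.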
